A study of Sus scrofa with 9 samples.

Results

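Haem scavenging and breakdown were followed through 8 genes among the 25918 genes measured in the liver of Wujin pigs. The 8 genes, HP, HPX, CD163, LRP1, HMOX1, HMOX2, BLVRA and BLVRB, were chosen by symbol for their known roles and were all found in the table. The livers came from 9 pigs of a breed of the Yunnan-Guizhou Plateau, 3 in each of 3 groups that differed in the iron added to a shared basic diet. The low-iron group received 0 mg/kg of added iron, the control group 100 mg/kg and the high-iron group 200 mg/kg, added as iron glycinate. All animals entered at 35 days of age, were prefed for 5 days and then fed the test diets for 30 days, and each was housed alone. Both sexes were used in the study, and the labels do not give the sex behind each library. Libraries are named by group and by the animal number in the label, so that control 4 is animal number 4 of the control group. Control animals also received added iron, and the low-iron animals still ate whatever iron the basic diet held.

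Haemoglobin and haem leave ruptured red cells and are bound in plasma by haptoglobin and haemopexin, which the liver secretes. Haptoglobin with its haemoglobin is taken up by macrophages through the receptor CD163, and haemopexin with its haem is taken up through the receptor LRP1. Inside the cell, haem oxygenases open the haem ring to biliverdin, carbon monoxide and iron, and biliverdin reductases turn biliverdin into bilirubin, so that these genes lie on the route by which iron is recovered from haem.

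Expression was given as FPKM (fragments scaled to transcript length and to the mapped fragments of the library), which is a level per transcript length and lets genes be set beside each other. Read counts are not in the table and cannot be recovered from it, which leaves the depth of each value unknown, and precision rests on the spread between the 3 animals of a group. Summed FPKM lay between 416922 and 456420 per library, and 16235 to 17817 genes had a value above 0. The liver label was borne out by ALB, the gene of serum albumin, at 46231 to 74134 FPKM in the 9 libraries.

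Regulatory sequence is shown for the 4 members whose upstream letters held a motif often named for their class, read from the Sscrofa11.1 genome. The HP gene lies on chromosome 6, from 14980382 to 14985245 on the plus strand. The window from 250 bases before to 50 bases after its annotated start is chr6:14980132-14980431, printed along the plus strand with the match to TTCNNNGAA, the letters of a STAT3 site, in capitals, because STAT3 drives acute phase genes of the liver.
HP: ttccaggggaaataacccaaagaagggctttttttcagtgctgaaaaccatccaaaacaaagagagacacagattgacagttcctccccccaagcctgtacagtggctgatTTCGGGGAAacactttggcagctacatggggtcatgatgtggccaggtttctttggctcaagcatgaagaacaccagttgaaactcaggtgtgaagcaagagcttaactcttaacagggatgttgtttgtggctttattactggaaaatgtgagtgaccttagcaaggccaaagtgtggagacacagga
The match, TTCGGGGAA, starts 139 bases before the annotated start, and 7.36% of 20664 protein-coding promoters of the same length hold such a match. CD163 lies on chromosome 5, from 63300200 to 63334497 on the plus strand. Its window, chr5:63299950-63300249, is shown along the plus strand with matches to the C/EBP letters TTNCNNAA, or TTNNGNAA on the other strand, in capitals, because C/EBP factors act in hepatocytes and in macrophages.
CD163: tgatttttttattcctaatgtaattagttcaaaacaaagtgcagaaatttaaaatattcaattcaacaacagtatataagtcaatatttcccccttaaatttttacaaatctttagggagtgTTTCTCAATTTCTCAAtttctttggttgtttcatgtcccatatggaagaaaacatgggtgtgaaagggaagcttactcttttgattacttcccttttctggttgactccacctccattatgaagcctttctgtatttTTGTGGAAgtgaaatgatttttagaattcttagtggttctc
Of its 3 matches, 2 adjoin each other 128 and 120 bases before the start and 1 begins 10 bases after it, and 36.1% of promoters hold at least 1 match. The third set holds the MAF recognition element with an AP-1 core (T-MARE, on either strand), at which BACH1 and NRF2 bind with small MAF proteins and through which haem itself acts on HMOX1. It was searched over 10000 bases before each gene, with the base that varies in its core, C or G, settled after matches to stricter and looser letters had been seen, which lay before the same members. It was found before 2 of the 8 members, both haem oxygenases, against 10.4% of 20515 genes. HMOX1 has 2 matches, on an unplaced scaffold, which begin 5531 and 3407 bases before the gene. The 40 bases around them, 1949282 to 1949321 and 1951406 to 1951445, are shown along the plus strand. The HMOX2 match begins 1175 bases before that gene, in chr3:37869314-37869353, shown along the minus strand on which HMOX2 is read, and capitals mark the match in each.
HMOX1, farther match: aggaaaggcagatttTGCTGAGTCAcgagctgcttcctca
HMOX1, nearer match: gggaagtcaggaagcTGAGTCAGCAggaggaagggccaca
HMOX2: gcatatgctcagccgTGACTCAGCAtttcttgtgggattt
All 8 members were searched in the 300-base windows. The STAT3 letters matched in HP alone and not in HPX, and the C/EBP letters in CD163 alone, so in neither HP nor HPX. The letters TATAAA (11.6% of promoters) matched in no member. The PU.1 letters GAGGAA (26.1%) matched in HP and BLVRB and not in CD163. These matches are letters in a genome window and no binding was measured here.

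No member was called differentially expressed between the diets. A call needed a 2-fold or larger change together with a limma p-value, before adjustment, under 0.05, in 1 fit of the 3 groups over 12584 genes. Between low-iron and control pigs 0 of 8 members were called, where 0.882% of all tested genes were called. The counts were 0 of 8 between high-iron and control pigs, where 1.57% of all genes were called, and 0 of 8 between high-iron and low-iron pigs, where 1.54% were called. At an unadjusted limma p-value under 0.05 without the fold limit, the members counted were HMOX1 alone (low-iron against control, 3.68% of all genes), CD163 alone (high-iron against control, 5.59%) and HMOX2 alone (high-iron against low-iron, 7.15%). With Benjamini-Hochberg adjustment over all genes no member fell below 0.05 in any of the 3 comparisons, and 0%, 0.00795% and 0% of all genes did. With 1 member in 8 in each comparison, these counts are too small to set apart from the shares of all genes. The comparisons share animals, since each group enters 2 of them, and their values are therefore given side by side.

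Sign by sign, 7 of 8 members had a positive log2 fold change in low-iron against control pigs, 5 of 8 in high-iron against control pigs and 3 of 8 in high-iron against low-iron pigs. Over all genes the positive shares were 62.7%, 65% and 53.6%. The median log2 fold change of the members was 0.29, 0.06 and -0.20 in that order, beside 0.08, 0.10 and 0.03 over all genes, and the median standard error of a gene was 0.27.

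**Figure D1:**
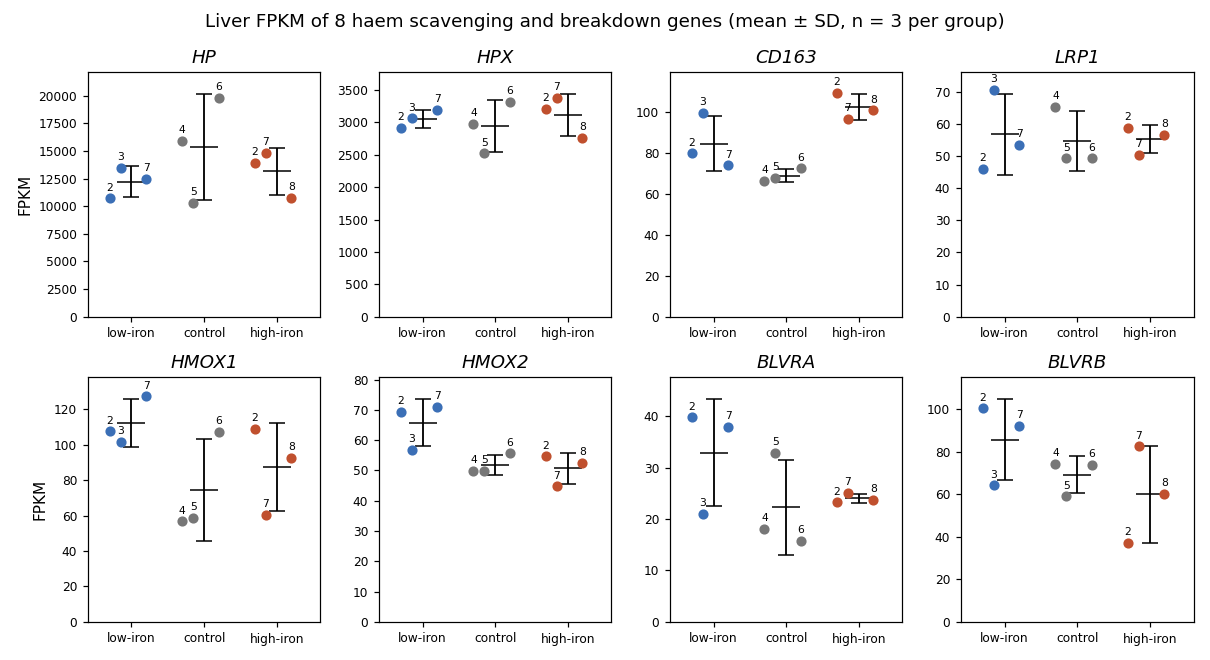
Liver FPKM (vertical axes, linear and starting at 0) of the 8 genes by diet group. Each point is 1 pig with its animal number, and bars give the mean ± SD of 3 pigs. The 3 high-iron CD163 values (96.6 to 109) lie above the 3 control values (66.2 to 72.3), and the 3 low-iron HMOX2 values (56.9 to 71.1) lie above those of both other groups (44.8 to 55.7).

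The plasma proteins came first in level. HP, which encodes haptoglobin, held the second-highest FPKM of the table in every library. It was at 10714, 13458 and 12456 FPKM in low-iron 2, 3 and 7, at 15922, 10308 and 19837 in control 4, 5 and 6, and at 13907, 14825 and 10771 in high-iron 2, 7 and 8. The control group held both the lowest and the highest value, so the groups overlapped throughout. Means were 12209 ± 1388, 15356 ± 4790 and 13168 ± 2125 FPKM (SD, n = 3 each) from low to high added iron. The log2 fold change was -0.29 ± 0.34 (SE) for low-iron against control and -0.18 ± 0.34 for high-iron against control, and limma's 95% intervals ran from a fold of 0.485 to 1.39 and from 0.520 to 1.49. The first of these log2 fold changes was -0.55 without control 5 and -0.08 without control 6. An exact permutation test over the 3 groups gave p = 0.579. Of the 1525 exonic bases of HP, 183 overlap exons of TXNL4B on the other strand.

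HPX, which encodes haemopexin (chr9:3288288-3297051, plus strand), was the steadiest member, with a highest value only 1.34 times the lowest. Its FPKM was 2920, 3062 and 3195 in the low-iron pigs, 2979, 2521 and 3321 in the control pigs, and 3211, 3381 and 2760 in the high-iron pigs. The 3 ranges lay inside one another almost wholly. Group means were 3059 ± 137, 2940 ± 401 and 3117 ± 321 FPKM (SD, n = 3 each), ranked 13th of the table on average, and the exact 3-group permutation test gave p = 0.786. The limma intervals of the fold change against control, 0.732 to 1.5 for low iron and 0.743 to 1.52 for high iron, leave out a change of 2-fold in either direction. For HP the interval of low iron against control reaches below a fold of 0.5, so that a halving lies inside it.

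HP and HPX are both acute phase genes, and their spread was set beside 22 other genes listed for the acute phase. The list also held the receptor and signalling genes IL1R1, SOCS3 and STAT3. AHSG, a negative acute phase gene, was averaged with the rest without a change of sign, so the mean is not a pure acute phase level. None of the 22 was called in any comparison, and 9, 9 and 15 of 22 had a positive log2 fold change in low-iron against control, high-iron against control and high-iron against low-iron pigs, with medians of -0.16, -0.04 and 0.06. Across the 9 pigs HP went up and down with the mean log2 level of the 22 genes at r = 0.718 (exact permutation p = 0.0320, Benjamini-Hochberg 0.0640 over the 4 such relations computed) and rho = 0.60 (exact permutation p = 0.0968, adjusted 0.194). Leaving out low-iron 2 and 7, the pigs farthest from the median of the list, r was 0.689, and within groups it was 0.707, so the value did not rest on the diet means. For HPX r was 0.50 (exact permutation p = 0.171, adjusted 0.228) and rho 0.517 (exact permutation p = 0.162, adjusted 0.216), with 0.752 without the same 2 pigs and 0.580 within groups. Neither relation passed after adjustment.

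Fibrinogen made the bulk of that list by FPKM, although each gene weighed alike in the mean log2 level. FGB, the gene of the fibrinogen beta chain, was at 6357, 10122 and 6701 FPKM in the low-iron pigs, at 12048, 6524 and 13786 in the control pigs and at 8290, 10144 and 6472 in the high-iron pigs. Control 5 was the lowest control animal for both FGB and HP, and high-iron 8 the lowest high-iron animal for both. A minor member of the list split the animals across the diets: SAA4, a constitutive serum amyloid A gene, was at 0.449, 0.893 and 0.878 FPKM in low-iron 2, low-iron 7 and control 5 and at 29.7 to 77.8 FPKM in the other 6. The 3 pigs low in SAA4 were also among the 4 lowest for HP, and SAA4 was picked out after its values were seen. This wide split entered the mean log2 level with which HP was correlated above. The r of HP without SAA4 was not computed. The HP to HPX ratio within a library, also chosen after the values were seen, ran from 3.67 in low-iron 2 to 5.97 in control 6. Its means were 3.99 ± 0.371, 5.14 ± 0.959 and 4.21 ± 0.264 (SD, n = 3 each), and the groups overlapped (exact 3-group permutation p = 0.129, adjusted 0.257 over 4 such ratios).

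Of the 2 uptake receptors, CD163 was higher in every high-iron pig than in any control pig, with the smallest limma p-value of the 8 members. CD163 stood at 79.6, 99.4 and 73.9 FPKM in low-iron 2, 3 and 7, at 66.2, 67.6 and 72.3 in control 4, 5 and 6, and at 109, 96.6 and 101 in high-iron 2, 7 and 8. The control values were tight and lowest, the high-iron values highest, and the low-iron values lay between, with low-iron 3 inside the high-iron range. Group means were 84.3 ± 13.4, 68.7 ± 3.20 and 102 ± 6.43 FPKM (SD, n = 3 each). The log2 fold change of high-iron against control was 0.57 ± 0.17 (SE), a fold of 1.49 with a 95% interval of 1.15 to 1.93 (limma p = 0.00651, Benjamini-Hochberg adjusted p = 0.885 over all genes, exact permutation p = 0.1). The fold was below 2 and the adjusted p far above 0.05, so that CD163 was not called. Low-iron against control gave 0.28 ± 0.17 (limma p = 0.122, exact permutation p = 0.1) with groups that did not overlap either, but was 0.16 without low-iron 3, and high-iron against low-iron gave 0.29 ± 0.17 (limma p = 0.119, exact permutation p = 0.2). Non-overlap between groups was seen in 8.34% of all genes for low-iron against control and in 10.9% for high-iron against control. The exact 3-group permutation test gave p = 0.0107, where the smallest value it can give is 0.00357, and 3 against 3 animals cannot go below 0.1.

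Scaling mattered for CD163. Median-of-ratios scaling moved the median of all genes by -0.13 on the log2 scale in high-iron against control pigs, and the CD163 log2 fold change was then 0.44, the lowest of 19 alternatives, whose highest was 0.61. In all 19 the unadjusted limma p-value was under 0.05, with an adjusted p-value from 0.492 to 1.00. The 3-group permutation p was 0.0893 under this scaling and 0.0679 after quantile normalization, no longer under 0.05.

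CD163 is made by macrophages, in the liver mostly Kupffer cells, so the other macrophage markers were read beside it. In whole liver, more macrophages and more CD163 RNA in each macrophage cannot be told apart. Of 16 listed markers 15 were tested and none was called. In high-iron against control pigs 13 of 15 had a positive log2 fold change, with a median of 0.47 beside 0.10 over all genes, and 6 had a limma p-value under 0.05. These 6 were VSIG4 (a complement receptor of Kupffer cells, log2 fold change 0.61), CSF1R (the receptor for macrophage growth factor, 0.59), C1QB (0.62) and C1QA (0.49) of complement C1q, CD68 (a lysosomal glycoprotein, 0.54) and ADGRE1 (the F4/80 antigen, 0.76), all named after their values were seen. Under median-of-ratios scaling the high-iron against control median of the markers was 0.34 with 12 of 15 positive, beside -0.03 over all genes. Leaving out single libraries gave medians of 0.37 to 0.57. In low-iron against control pigs 12 of 15 were positive with a median of 0.11, which was 0.03 with 10 positive under that scaling. In high-iron against low-iron pigs 12 of 15 were positive with a median of 0.36. The most abundant marker was CD5L, a protein secreted by tissue macrophages, at 249 to 335 FPKM over all libraries. It was highest in control 4, at 335 FPKM, and lowest in high-iron 8, at 249 FPKM, so not every macrophage gene ran with CD163. No marker was at 0 in all libraries, and FCGR1A fell below the level filter.

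VSIG4 was also higher in every high-iron pig than in any control pig. It was at 22.0, 22.0 and 18 FPKM in the low-iron pigs, 18.9, 20.9 and 19.1 in the control pigs and 30.2, 31.3 and 28.7 in the high-iron pigs. The 3 high-iron animals stood above the other 6, low-iron 3 was well below them where its CD163 value lay among theirs, and low-iron and control pigs overlapped. Its log2 fold change of 0.61 ± 0.16 (SE) against control had a limma p-value of 0.00287, an adjusted p-value of 0.885 and an exact permutation p of 0.1.

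Across the 9 pigs CD163 and the mean log2 level of the 15 markers had r = 0.952 (exact permutation p = 0.000174, adjusted 0.000694 over the 4 relations) and rho = 0.95 (exact permutation p = 0.000353, adjusted 0.00141). Without high-iron 2 and 8 r was 0.926, and on deviations from the group means it was 0.862, so the relation was also present within the groups. Summed FPKM of the 16 listed markers, with FCGR1A, ran from 1193 to 1348 in low-iron, from 1047 to 1352 in control and from 1319 to 1590 in high-iron pigs. Control 6 reached into the high-iron range. CD163 per summed FPKM of these markers was 0.0651 ± 0.00808, 0.0574 ± 0.00622 and 0.0717 ± 0.00413 (SD, n = 3 each). This ratio was chosen after the values were seen. Abundant markers weigh most in its sum. CD5L was at 281 to 335 FPKM in control and 249 to 291 in high-iron pigs, and CD14 at 219 to 270 and 196 to 277. C1QA, C1QB and C1QC, also abundant, were at 117 to 234 FPKM in control and 193 to 304 in high-iron pigs. A ratio with the markers weighed alike was not computed. High-iron and control ratios did not overlap (exact permutation p = 0.1, the smallest that 3 against 3 allows), and over the 3 groups the exact permutation p was 0.125, adjusted 0.257. The part of macrophage number in the CD163 difference was not tested further.

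**Figure D2:**
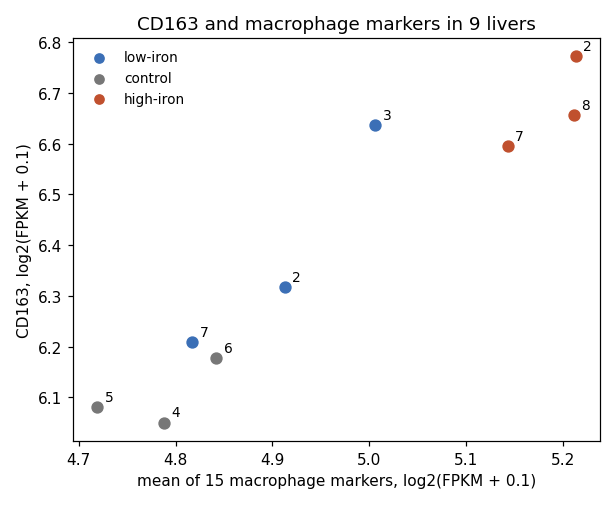
CD163 on the vertical axis against the mean of 15 macrophage markers on the horizontal axis, both as log2(FPKM + 0.1), with 1 point per pig, its animal number and its group in color. The axes do not start at 0. The 3 high-iron pigs lie at the upper right, the control pigs at the lower left, and r over the 9 pigs was 0.952.

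LRP1, the receptor for haemopexin with its haem and for many other ligands (chr5:22435636-22519276, plus strand), showed no such order. Its FPKM was 46.2, 70.7 and 53.6 in the low-iron pigs, 65.5, 49.4 and 49.4 in the control pigs and 58.9, 50.4 and 56.8 in the high-iron pigs. The low-iron group held both its lowest and its highest value. Group means were 56.8 ± 12.6, 54.8 ± 9.30 and 55.3 ± 4.40 FPKM (SD, n = 3 each), and the exact 3-group permutation p was 0.968. The fold against control lay between 0.755 and 1.41 for low iron and between 0.745 and 1.39 for high iron at 95% confidence by limma, which leaves out a doubling and a fall by a similar factor. LRPAP1, a chaperone of LRP1, was at 30.9 to 54.4 FPKM and gave a log2 difference of -0.42 ± 0.20 (SE) between high-iron and low-iron pigs (limma p = 0.0676, exact permutation p = 0.2).

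Both haem oxygenases had their highest mean in the low-iron group. HMOX1, the inducible enzyme (on an unplaced scaffold from 1954828 to 1963836, plus strand), was at 108, 102 and 127 FPKM in low-iron 2, 3 and 7, at 56.7, 58.7 and 107 in control 4, 5 and 6, and at 109, 60.4 and 92.7 in high-iron 2, 7 and 8. All low-iron pigs were above 100, while the control and high-iron groups each mixed low and high animals. Control 6, at 107 FPKM, overlapped the low-iron group. Means were 112 ± 13.4, 74.3 ± 28.7 and 87.3 ± 24.7 FPKM (SD, n = 3 each). The log2 fold change of low-iron against control was 0.65 ± 0.29 (SE), a fold of 1.57 with a 95% interval of 1.01 to 2.44 (limma p = 0.0454, adjusted p = 1.00 over all genes, exact permutation p = 0.2). The exact 3-group permutation p was 0.193. High-iron pigs differed from control by 0.26 ± 0.29 and from low-iron pigs by -0.40 ± 0.29 on the log2 scale.

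This HMOX1 difference leaned on single animals. Without control 6 the log2 fold change was 0.95, and without control 4 it was 0.49. The unadjusted limma p-value was under 0.05 in 10 of 19 alternatives, without control 6 among them, and not without control 4 or 5, without low-iron 2, 3 or 7, without high-iron 8, without a filter, or after median-of-ratios or quantile scaling.

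HMOX2, the constitutive haem oxygenase (chr3:37829044-37868163, minus strand), was at 69.3, 56.9 and 71.1 FPKM in the low-iron pigs, 49.9, 49.9 and 55.7 in the control pigs and 54.7, 44.8 and 52.5 in the high-iron pigs. Every low-iron value exceeded every value of the other 6 pigs, although low-iron 3 did so by little over control 6. Means were 65.8 ± 7.73, 51.8 ± 3.32 and 50.7 ± 5.21 FPKM (SD, n = 3 each). High-iron against low-iron gave a log2 fold change of -0.37 ± 0.17 (SE), a fold of 0.772 with a 95% interval of 0.597 to 0.997 (limma p = 0.0481, adjusted p = 0.697, exact permutation p = 0.1). Low-iron against control gave 0.34 ± 0.17, a fold of 1.26 from 0.977 to 1.63 (limma p = 0.0700, adjusted p = 1.00, exact permutation p = 0.1), and high-iron against control gave -0.04 ± 0.17. Groups did not overlap in 13.2% of all genes for high-iron against low-iron pigs. The exact 3-group permutation p was 0.0429, but 0.114 after median-of-ratios scaling and 0.171 after quantile normalization, and the limma p of high-iron against low-iron was under 0.05 in 8 of 19 alternatives, and the log2 fold change ran from -0.48 without low-iron 3 to -0.29 without high-iron 7. HMOX2 overlaps CDIP1 on the opposite strand over 10223 bases with no shared exon bases. CDIP1 was at 10.4 to 19.3 FPKM, and whether the counting used strand is not given in the sources used here.

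The ratio of HMOX1 to HMOX2 within a library ran from 1.14 in control 4 to 1.99 in high-iron 2, so the inducible gene was the higher one in all 9 livers. Its means of 1.71 ± 0.136, 1.41 ± 0.447 and 1.70 ± 0.326 (SD, n = 3 each) overlapped (exact 3-group permutation p = 0.443). This ratio too was chosen after the values were seen.

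HMOX1 is known to be governed by the repressor BACH1 and the activator NRF2 (gene NFE2L2) with small MAF partners. Whether they act at the matches printed above was not measured. Of 9 such regulators 8 were tested and none was called, with 7, 5 and 2 of 8 positive in low-iron against control, high-iron against control and high-iron against low-iron pigs. MAFG, a small MAF protein, was at 1.57, 2.10 and 2.74 FPKM in the low-iron pigs and at 1.05, 1.21 and 1.22 in the control pigs, with no overlap and a log2 fold change of 0.80 ± 0.27 (SE, limma p = 0.0132, adjusted p = 1.00, exact permutation p = 0.1). It was at 1.49, 1.76 and 2.04 FPKM in the high-iron pigs, also above every control pig, with a log2 fold change of 0.56 ± 0.27 (limma p = 0.0631, exact permutation p = 0.1). BACH1 gave 0.26 ± 0.23 and NFE2L2 0.16 ± 0.19 in low-iron against control pigs. In high-iron against control pigs NFE2L2 gave 0.38 ± 0.19 without overlap (limma p = 0.0694, exact permutation p = 0.1). Of 14 other NRF2 target genes 1 was called in low-iron against control pigs, SLC7A11, the cystine transporter, which fell by 1.39 ± 0.58 on the log2 scale, the opposite sign to HMOX1. Its levels were low, at 0.232 to 0.721 FPKM in the low-iron and 0.547 to 3.06 FPKM in the control pigs, and its groups overlapped. The 14 genes had medians of 0.09, -0.11 and -0.20 in the 3 comparisons with 8, 5 and 4 positive. Over the 9 pigs HMOX1 had r = 0.126 with their mean level (exact permutation p = 0.747, adjusted 0.747), rho = 0.217 (exact permutation p = 0.581, adjusted 0.581), 0.235 without low-iron 7 and high-iron 2, and -0.07 within groups. No relation of HMOX1 with this list was seen at this number of animals.

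Within the list the ferritin genes FTL and FTH1 stood highest, at 2131 to 3863 and 1450 to 2862 FPKM, and neither was called. GCLC and GCLM, the subunits of glutamate-cysteine ligase, differed between high-iron and low-iron pigs in opposite directions, by 0.55 ± 0.22 and -0.37 ± 0.16 on the log2 scale (SE, limma p = 0.0333 and 0.0459, exact permutation p = 0.1 for both), without overlap, and were picked out after their values were seen. POR, which passes electrons to both haem oxygenases, was at 72.6 to 128 FPKM, and its log2 fold change was 0.12 ± 0.24 for low-iron and -0.19 ± 0.24 for high-iron against control. None of the 4 tested genes of electron supply and LRP1 handling was called. Their medians were 0.10 and -0.19 against control and -0.13 between high-iron and low-iron pigs.

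**Figure D3:**
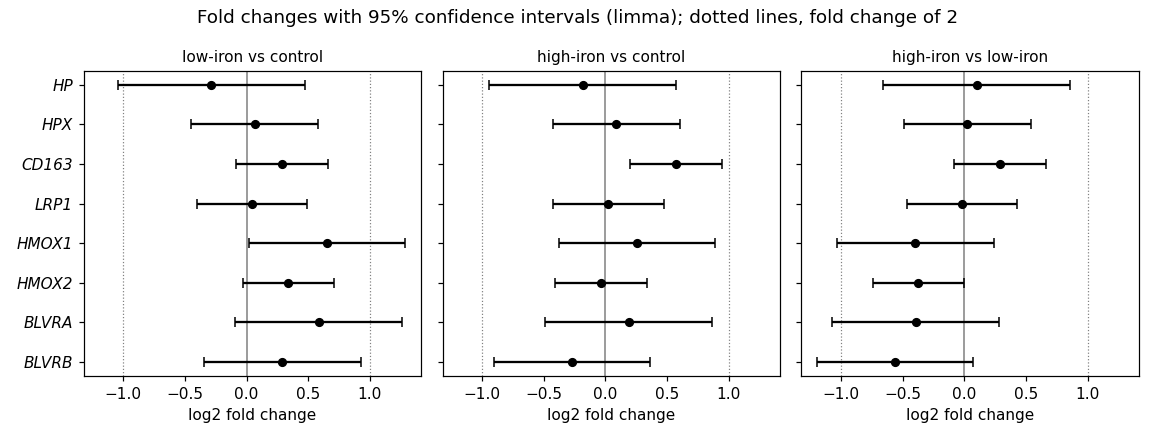
The log2 fold change of each member (horizontal axis) in the 3 comparisons, as points with limma's 95% confidence intervals from 3 pigs per group. Dotted lines mark a fold change of 2 in either direction. The intervals of CD163 in high-iron against control, HMOX1 in low-iron against control and HMOX2 in high-iron against low-iron leave out 0, and no point reaches a dotted line.

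The biliverdin reductases followed. BLVRA, the reductase of biliverdin IX alpha (chr18:51131576-51185493, minus strand), was the lowest member at 15.7 to 39.8 FPKM. It was at 39.8, 21.0 and 37.9 FPKM in low-iron 2, 3 and 7, at 18.1, 32.9 and 15.7 in control 4, 5 and 6 and at 23.3, 25 and 23.8 in high-iron 2, 7 and 8. Low-iron 3 lay far below the other low-iron pigs and control 5 far above the other control pigs, while the high-iron pigs differed little. Means were 32.9 ± 10.4, 22.2 ± 9.31 and 24.0 ± 0.908 FPKM (SD, n = 3 each), with an exact 3-group permutation p of 0.339. Low-iron against control gave a log2 fold change of 0.58 ± 0.31 (SE, fold 1.5, 95% interval 0.937 to 2.40, limma p = 0.0843, exact permutation p = 0.2). It was 0.90 without control 5, 0.88 without low-iron 3 and 0.81 with array quality weights, where the unadjusted limma p-value fell under 0.05, and 0.37 without control 6. Of its 1238 exonic bases, 125 overlap exons of an unnamed lncRNA on the other strand.

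BLVRB, which reduces other biliverdins and flavins (chr6:48715540-48728433, minus strand), spanned the widest range, 2.71 times from lowest to highest. It was at 100.4, 64.2 and 92.2 FPKM in the low-iron pigs, 74.2, 59.1 and 73.9 in the control pigs and 37.1, 82.5 and 60.1 in the high-iron pigs. High-iron 2 was the lowest and low-iron 2 the highest, and all groups overlapped. Means were 85.6 ± 19.0, 69.1 ± 8.67 and 59.9 ± 22.7 FPKM (SD, n = 3 each), descending with added iron, with an exact 3-group permutation p of 0.311. High-iron against low-iron gave -0.56 ± 0.29 (SE, fold 0.677, 95% interval 0.436 to 1.05, limma p = 0.0763, exact permutation p = 0.2). Without high-iron 2 it was -0.26, while it was -0.83 without high-iron 7, -0.76 without low-iron 3, -0.61 after median-of-ratios scaling and -0.56 with array quality weights, where the unadjusted limma p-value fell under 0.05. The BLVRA to BLVRB ratio, also chosen after the values were seen, ran from 0.213 in control 6 to 0.627 in high-iron 2 (exact 3-group permutation p = 0.6). The erythrocyte also holds BLVRB, and HBB, the beta globin gene, was at 1409, 470 and 2433 FPKM in the low-iron pigs, 209, 671 and 1434 in the control pigs and 828, 527 and 349 in the high-iron pigs. The part of blood left in the tissue in the BLVRB values was not tested.

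In order of mean FPKM over the livers, the members ran HP (13578), HPX (3039), HMOX1 (91.3), CD163 (85.1), BLVRB (71.5), HMOX2 (56.1), LRP1 (55.7) and BLVRA (26.4). Gaps between HP, HPX and the rest exceeded any spread, since the lowest HP value was above the highest HPX value and the lowest HPX value above all values of the other 6. HMOX1, CD163 and BLVRB overlapped in their ranges over libraries (56.7 to 127, 66.2 to 109 and 37.1 to 100.4), as did HMOX2 and LRP1 (44.8 to 71.1 and 46.2 to 70.7). BLVRA lay below all values of HMOX2, LRP1, CD163 and HMOX1, and its highest value was above the lowest BLVRB value. The secreted carriers thus stood far above the receptors and enzymes.

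Among the genes around these steps no call was made. Of 9 haem transport genes none was called in any comparison, with 2, 2 and 3 positive and medians of -0.06, -0.07 and -0.08. SLC46A1, a folate and haem importer, was at 21.4, 20.6 and 22.0 FPKM in the control pigs and 13.4, 19.6 and 13.6 in the high-iron pigs, a log2 fold change of -0.48 ± 0.21 without overlap (SE, limma p = 0.0489, adjusted p = 0.892, exact permutation p = 0.1). FLVCR1, a plasma membrane transporter linked to haem and choline, gave -0.61 ± 0.27 in that comparison (limma p = 0.0484, adjusted p = 0.892, exact permutation p = 0.2) with overlapping groups. AMBP, which yields the haem-binding alpha-1-microglobulin, was the most abundant of them at 982 to 1251 FPKM. Of 9 genes listed for bilirubin handling 7 were in the table under their symbols, and none was called. They had 3, 4 and 4 positive and medians of -0.02, 0.00 and 0.01. UGT1A1, the enzyme that conjugates bilirubin, was not among them, so that step was not covered. UGT1A6, of the glucuronosyltransferase family, was at 243 to 358 FPKM, and ABCC2, the canalicular exporter of conjugated bilirubin, was at 19.2 to 38.3 FPKM.

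The values of markers of other cell types stand here beside the members. Among 9 endothelial markers 8 were positive in high-iron against control pigs with a median of 0.47, and VWF, von Willebrand factor, was called (log2 fold change 1.68 ± 0.52, SE, limma p = 0.00895, adjusted p = 0.885, exact permutation p = 0.1). Among 9 stellate cell and fibroblast markers all 9 were positive with a median of 0.57, and COL1A1, the type I collagen alpha 1 chain, was called (1.53 ± 0.49, limma p = 0.010, adjusted p = 0.885, exact permutation p = 0.1). COL1A1 and COL1A2 were also called in high-iron against low-iron pigs, at 1.51 and 1.05. Hepatocyte markers had medians of 0.06, -0.03 and -0.09, with 9, 4 and 2 of 13 genes positive in that order, and no call. At an unadjusted limma p-value under 0.05, 1 of them was higher in high-iron against control pigs, and 1 was higher and 1 lower in high-iron against low-iron pigs. The higher one was APOA2, an apolipoprotein of high-density lipoprotein named after its values were seen, with log2 fold changes of 0.72 ± 0.32 and 0.75 ± 0.32 (SE, exact permutation p = 0.2 and 0.3) and overlapping groups. Between high-iron and low-iron pigs HNF4A alone of the 13 had groups that did not overlap, beside 13.2% of all genes. HNF4A, also named after its values were seen, was at 63.5, 96.3 and 102 FPKM in low-iron and 58.7, 55.8 and 63.4 in high-iron pigs. Of 4 tested neutrophil and monocyte markers S100A12, a calgranulin, was called in low-iron against control pigs (3.03 ± 1.12, limma p = 0.0216, exact permutation p = 0.2), with 2 of the 3 control pigs listed at 0. Of 11 listed erythroid genes with values 4 were tested, none was called, and all 4 were positive in low-iron against control pigs with a median of 0.93, which was 0.30 without control 4 and 1.55 without control 6, while KLF1 was at 0 throughout. Their median in high-iron against control pigs, -0.11, was -0.68 and 0.40 without the same animals. Endothelial markers summed to 303 to 367 FPKM in low-iron, 273 to 318 in control and 300.2 to 435 in high-iron pigs, and stellate and fibroblast markers to 125 to 316, 123 to 214 and 208 to 314 FPKM. The part of these cells in the member values was not tested.

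**Figure D4:**
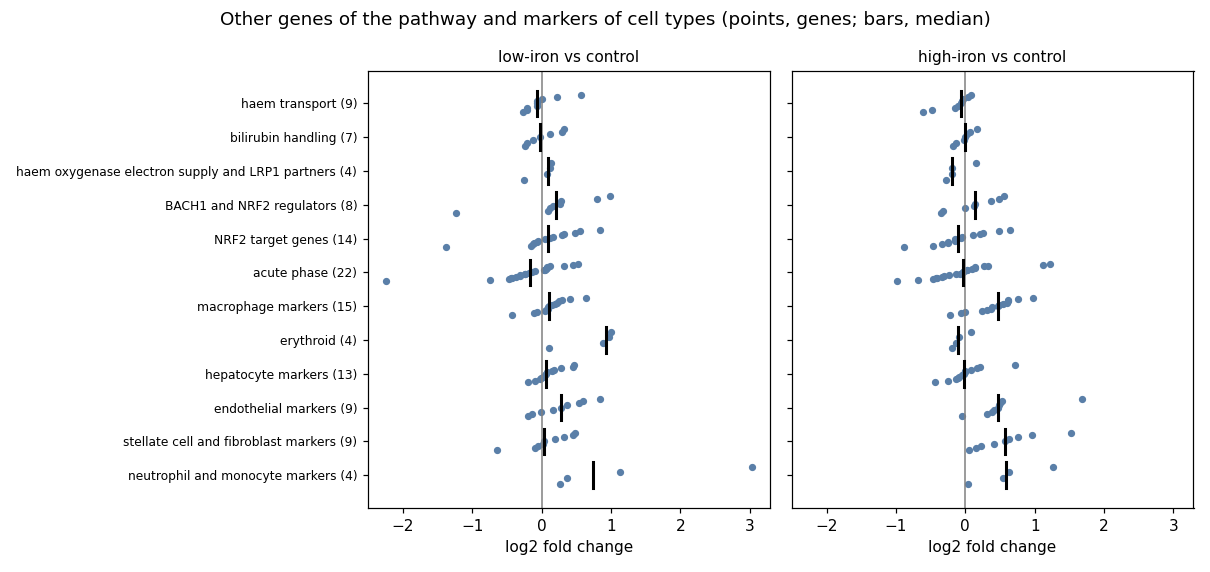
The log2 fold change of each tested gene (points, horizontal axis) by list in low-iron against control and high-iron against control pigs, with the number of tested genes in parentheses and the list median as a bar. The macrophage median stands at 0.11 and 0.47, the erythroid median at 0.93 and -0.11, and the bilirubin handling median near 0 in both.

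For the 3 members with the largest spread over the 9 livers, the genes with the most similar profile were sought by the root mean square (RMS) difference of centred log2 values among 10124 genes. BLVRA lay nearest to EPHX1, microsomal epoxide hydrolase, with an RMS difference of 0.18 against a median of 0.54 over all genes, then TTC36 (0.20) and SUCLA2 (0.21). EPHX1 was at 723, 447 and 719 FPKM in the low-iron pigs, 350 (control 4), 699 (control 5) and 407 (control 6) in the control pigs and 416, 520 and 609 in the high-iron pigs, with the same low animal in the first group and the same high animal in the second. HMOX1 lay nearest to CXXC5 (0.14, median 0.52), then NOP9 (0.20) and DDX10 (0.22). BLVRB lay nearest to COX6A1, a subunit of cytochrome c oxidase (0.12, median 0.48), then AURKAIP1 (0.13) and ZNF205 (0.13). COX6A1 was at 56.3 FPKM in high-iron 2 and at 97.4 to 136 FPKM in the other 8 pigs. These are the closest of many profiles and were not tested.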

How the data were processed

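Liver RNA of 9 pigs was sequenced as poly(A)-selected libraries and groups follow the series design text. Adapter and low-quality reads had been dropped, and the authors mapped the rest to Sscrofa11.1 with HISAT2, assembled with StringTie and deposited FPKM values. Rows numbered as geneN were read as the serial gene of NCBI annotation release 106, and 20660 of 20660 numbered genes then fell on protein-coding lines (15031 when shifted by 1). Another 5258 new genes have no name.

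Values were tested as log2(FPKM + 0.1) for 12584 genes whose mean FPKM was 0.5 or more, with limma 3.58.1 in R 4.3.3, empirical Bayes with trend and 6 residual degrees of freedom. Fold changes on this scale understate the change of low genes. Calls used a 2-fold change in either direction and p under 0.05 before adjustment, with Benjamini-Hochberg values over all genes. Exact two-sided permutation tests were made in Python 3.11.15 (pandas 2.3.3, scipy 1.17.1, numpy 2.4.6) over 1680 assignments to 3 groups or 20 splits of 3 against 3. The limma procedure was tested on simulated data. Each replicate is 1 pig.

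All members, genes called in other lists, the 3 highest genes and the 2 largest changes per list and comparison, and the 3 nearest profiles were to be named. The members and lists were chosen with earlier results of these data known, so a list's count is no independent evidence. Alternatives were pseudocounts of 1 and 0.01, no filter or a mean FPKM of at least 1, TPM, median-of-ratios and quantile scaling, a fit of only 2 groups, array weights, a replicate block and leaving out each library. UGT1A1, SLCO1B1, CYB5R3, SERPINA3 and HBA1 were not matched by symbol and were not analysed here, and CRP, C4BPA and TF each matched 2 gene records, both kept.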

Additional observations from a re-analysis of the deposited data

How the results depend on the processing

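The count of called members stayed at 0 of 8 in all 57 alternative fits, while the count of all called genes moved. With a pseudocount of 1 it was 34, 74 and 67 in low-iron against control, high-iron against control and high-iron against low-iron pigs, without a filter it was 331, 504 and 458, and with array quality weights it was 171 and 334 in the first and last. Leaving out each library gave 111 to 209, 190 to 296 and 186 to 333 called genes. The counts of 0.882%, 1.57% and 1.54% of all genes therefore hold for the stated filter only. Of the medians of the other lists under the alternatives, 657 moved by less than the SD of the list's mean level between animals of a group and 27 by more. HP has no value after quantile normalization, since it held the same rank in every library.

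Direction held for CD163 and HMOX1 in all alternatives, and every reversal was of a log2 fold change no larger than its standard error, with its cause not tested. For low-iron against control HPX was -0.0166 (median-of-ratios) and -0.124 (quantile) and LRP1 -0.0386, -0.0377 and -0.117 (median-of-ratios, quantile and array weights), and leaving out libraries gave -0.0411 to 0.158 for HPX and -0.126 to 0.181 for LRP1. For high-iron against control HPX was -0.0409 and LRP1 -0.105 under median-of-ratios scaling, and LRP1 was -0.0615 with array weights. Leaving out libraries there gave -0.446 to 0.0263 for HP, -0.0183 to 0.181 for HPX, -0.0438 to 0.160 for LRP1, -0.0948 to 0.0495 for HMOX2, -0.0228 to 0.508 for BLVRA and -0.540 to 0.0354 for BLVRB. For high-iron against low-iron HPX was -0.0243 and -0.0236 (median-of-ratios and array weights) and LRP1 0.0144, 0.0495 and 0.0560 (TPM, quantile and array weights), and leaving out libraries gave -0.0383 to 0.108 for HPX and -0.157 to 0.15 for LRP1.

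The r of HP with the acute phase list was 0.732 after median-of-ratios scaling (exact permutation, adjusted p = 0.0374) and lay between 0.660 and 0.822 when single libraries were left out. It passed the threshold without low-iron 3. The r of HMOX1 with NRF2 targets was -0.0720 (TPM), -0.0389 (quantile) and from -0.189 to 0.513 without single libraries. That of CD163 with macrophage markers kept its call, at 0.936 to 0.983.

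Animal numbers 2 and 7 occur in both the low-iron and the high-iron group. Deviations of same-numbered animals correlated at 0.02 and 0.02, while the consensus correlation of the replicate block was 0.20. The labels state no pairing, and the main fit did not take the numbers as pairs. With the number as a replicate block 110, 207 and 228 genes were called, no member was, and LRP1 was 0.00246 between high-iron and low-iron pigs. In that last comparison the main fit called 194 genes. Genes with an unadjusted limma p-value under 0.05 there numbered 900 in the main fit and 1168 with the block.

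With 3 animals a group, median standard errors of 0.27 limit what can be seen, and fold changes of CD163, HMOX1 and HMOX2 below 2 rest on few animals.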
